A study of Rattus norvegicus with 2 samples.

Results

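The genes studied here encode the contractile apparatus of smooth muscle, measured in the embryonic cardiac outflow tract (OFT), the vessel that carries blood out of the primitive heart and is later divided into the aorta and the pulmonary artery. They were chosen by gene symbol and comprised 2 smooth muscle actins (Acta2 and Actg2), 2 transgelins (Tagln and Tagln2), 3 calponins (Cnn1, Cnn2 and Cnn3), smooth muscle myosin heavy chain (Myh11), smoothelin (Smtn) and caldesmon (Cald1). These are 10 of the 37203 genes in the count table. All 10 were found, and all 10 reached the minimum of 20 counts, summed over HO and WT, as did 15426 genes in total. Total RNA was sequenced from Sprague-Dawley rat embryos at E13.5 that carried a homozygous CRISPR/Cas9 deletion in Snx17 (Snx17-/-, HO) and from wild-type (WT) embryos of the same strain and age. Each genotype was represented by 1 library, made from the pooled OFTs of 10 embryos. The spread between embryos or pools could therefore not be measured, no p-value is given, and every interval below covers counting error only. The deletion was present in all tissues of the HO embryos and not only in smooth muscle. In such bulk RNA, fewer cells of a type cannot be told apart from less RNA per cell.

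Smooth muscle contracts when the heads of myosin, activated by phosphorylation of the myosin light chain, pull on actin filaments. Calponins, transgelins, smoothelin and caldesmon bind to these filaments and stabilise them or restrain the myosin. Most of the genes are controlled by serum response factor (SRF) with its partner myocardin through a DNA element called the CArG box. In the OFT, smooth muscle forms in the wall of the future great arteries, but Acta2, Tagln and Cnn1 are also expressed for a time in young cardiomyocytes, while Tagln2, Cnn2 and Cnn3 are found in many non-muscle cells and Cald1 also has a non-muscle form.

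The promoters that hold the SRF element are printed because this element is the hallmark of contractile genes. RefSeq windows on build GRCr8, which run from 250 bases before to 50 bases after the annotated start, were matched by symbol for 8 members and gave 9 windows, and Tagln and Myh11 were not matched. The start listed for Actg2 lies inside the span of the gene, so its window may not hold the promoter of Actg2. A strict CArG box (CC, then 6 bases that are each A or T, then GG, the same on both strands) was present in the window of Cnn2 only, against 1.64% of all 33469 windows. A relaxed box with at most 1 C or G in this core, which includes the strict one, was present in Acta2 and Cnn2, against 9.42% of all windows. The TEAD element MCAT (CATTCC, on either strand) was present in Acta2, Tagln2 and Cald1, against 14.2% of all windows. A match describes letters and not a bound site, and the absence of a match says only that the letters are not in the window. Acta2 is shown over chr1:241172504-241172753 on the minus strand, the 250 bases before its start, with the MCAT element (reverse strand) and then the relaxed CArG boxes in capitals. Cnn2 is shown over chr7:10370333-10370432 on the minus strand, with the strict CArG box in capitals, 62 to 71 bases before the start.
Acta2: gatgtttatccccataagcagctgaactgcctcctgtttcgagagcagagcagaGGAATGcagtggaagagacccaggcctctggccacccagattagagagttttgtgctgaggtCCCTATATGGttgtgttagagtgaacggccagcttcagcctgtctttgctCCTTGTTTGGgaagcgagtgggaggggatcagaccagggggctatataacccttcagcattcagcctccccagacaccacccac
Cnn2: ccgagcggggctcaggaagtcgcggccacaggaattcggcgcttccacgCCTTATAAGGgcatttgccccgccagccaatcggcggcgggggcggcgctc

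The contractile genes were abundant in both libraries. The 10 genes together held 43219 counts in HO and 40499 in WT, or 0.454% of the counted reads in HO (exact binomial 95% interval 0.449% to 0.458%) and 0.434% in WT (0.430% to 0.439%). Levels are given as RPKM, the authors' count divided by gene length and by the total of the library, so that genes of different length can be compared. The members summed to 2961 RPKM in HO and 2808 RPKM in WT, and the spread among them was large, between 11.8 and 855 RPKM in HO and between 15.8 and 777 RPKM in WT. Acta2, Tagln2 and Tagln formed the top tier, the 3 calponins the middle tier, and Cald1, Smtn, Myh11 and Actg2 the lowest tier in both libraries.

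**Figure D1:**
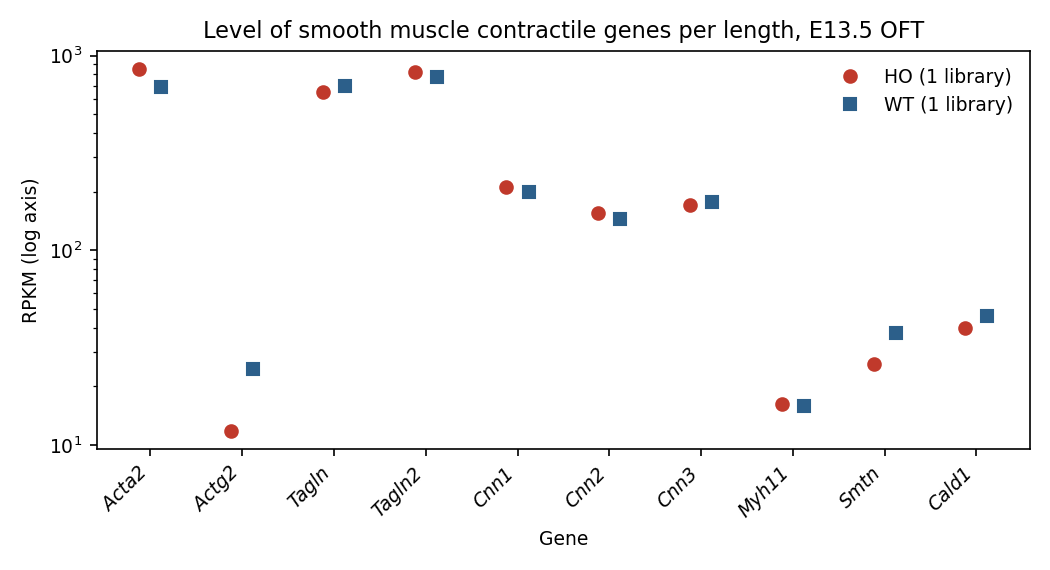
RPKM level (log axis) of each of the 10 smooth muscle contractile genes in the HO library (circles) and the WT library (squares), 1 library per genotype and no error bars. Acta2 stood at 855 RPKM in HO and 686 in WT, and Actg2 at 11.8 in HO and 24.5 in WT, while the points of most other genes nearly coincided.

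The order of the levels differed at 2 places between the genotypes. Acta2 was the highest member in HO, ahead of Tagln2 and Tagln, whereas in WT it was in the third place after Tagln2 and Tagln. The counting intervals of Acta2 (672 to 700 RPKM) and Tagln (682 to 716 RPKM) overlapped in WT, so that their order there was within counting error, and all other neighbours in both orders were separated by more than it. At the low end, Actg2 was the last member in HO, below Myh11, and stood above Myh11 in WT. The calponins kept the order Cnn1, Cnn3, Cnn2 in both libraries, followed by Cald1 and Smtn.

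To compare the genotypes, counts were scaled by TMM, and a fold of HO over WT was given an exact 95% interval from the counts. A gene passed the fold rule where this interval lay wholly beyond 1.5-fold, and differed beyond counting error where it left out 1. None of the 10 members was higher in HO by the fold rule, against 0.771% of all genes tested, and 1 member, Actg2, was lower, against 1.18% of all genes tested. Beyond counting error, 4 members were higher in HO (Acta2, Tagln2, Cnn1 and Cnn2), against 20.3% of all genes tested, and 4 were lower (Actg2, Tagln, Smtn and Cald1), against 17.0%. Cnn3 and Myh11 were within counting error. The members have many reads, and among the 7625 genes with at least 458 counts, the lowest sum of any member, 28.1% were higher and 22.0% lower beyond counting error, while 0.367% and 0.603% passed the fold rule. The median log2 fold of the 10 members was 0.01, and that of all 15426 genes was also 0.01. Members were found in both directions, and they are described below one by one.

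**Figure D2:**
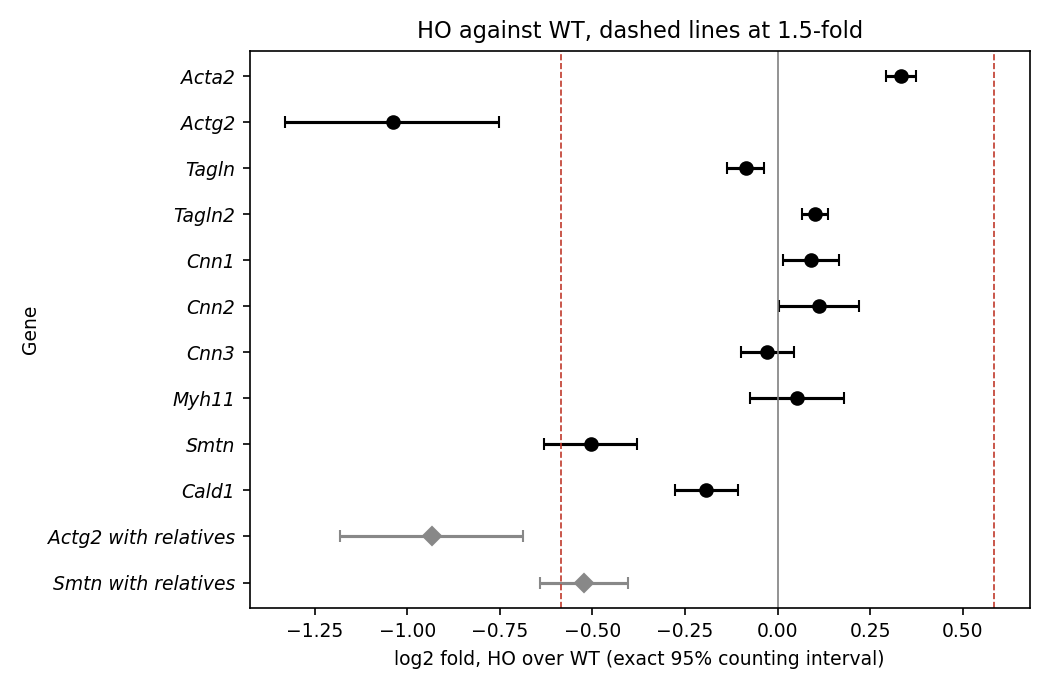
Log2 fold of HO over WT (horizontal axis) of the 10 members (black circles) and of Actg2 and Smtn with the reads of their relatives added (grey diamonds), with exact 95% counting intervals as bars and dashed lines at 1.5-fold in each direction. Among the 10 members Actg2 alone has its whole interval beyond a dashed line, the interval of Smtn (-0.50) crosses it, and Acta2 (0.33) lies farthest to the right.

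The 2 smooth muscle actins differed in opposite directions. Acta2, the actin of vascular smooth muscle, had 11360 counts in HO and 8919 in WT. It ranked 50 in HO and 74 in WT by RPKM among the 23019 genes with a count in either library. Its log2 fold was 0.33 (95% interval 0.29 to 0.37), a level 1.26-fold as high in HO, at or above the folds of 83.6% of genes tested. Actg2, the enteric smooth muscle actin, had 151 counts in HO and 307 in WT, and its rank was 6482 in HO and 3634 in WT. Its log2 fold was -1.04 (-1.33 to -0.75), a level in HO of 0.487 times that in WT (0.398 to 0.593), and it lay at the 2.36 percentile of all folds. Within the pair, Actg2 made up 1.31% of the counts in HO (exact binomial 95% interval 1.11% to 1.54%) and 3.33% in WT (2.97% to 3.71%). The ratio of Acta2 to Actg2 was 72.4 in HO and 28.0 in WT on the RPKM scale, and the ratio in HO was 2.59 times that in WT (2.12 to 3.17).

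Acta2 was set beside the other actins of the table because their coding sequences are similar, so that some short reads can be assigned to the wrong member. Among the 6 actins with a conventional symbol, Acta2 held 10.1% of the summed RPKM in HO and 9.44% in WT, and Actg2 held 0.139% in HO and 0.337% in WT. These shares leave out the unnamed copies of Actg1, of which LOC100361457 stood at 618 RPKM in HO and 663 in WT. The striated muscle actins, which are sarcomeric and expressed in cardiomyocytes at this age, were also higher in HO. Actc1, cardiac actin, had 46987 counts in HO and 35321 in WT (log2 fold 0.40), and Acta1, skeletal actin, had 23499 counts in HO and 16088 in WT (log2 fold 0.53). Relative to them Acta2 was not higher in HO, by ratios that, like that of Actg2 to Actc1, were added after the values were seen. The ratio of Acta2 to Actc1 in HO was 0.957 times that in WT (0.928 to 0.988), and the ratio of Acta2 to Acta1 was 0.872 times that in WT (0.843 to 0.902). The ratio of Actg2 to Actc1 in HO was 0.370 times that in WT (0.302 to 0.451). Of the cytoplasmic actins, Actb had 27578 counts in HO and 29961 in WT (log2 fold -0.13), and Actg1 had 5591 in HO and 4790 in WT (log2 fold 0.21, or 0.01 with the reads of its unnamed copies added). The 3 muscle actins other than Actg2 were thus higher in HO by amounts between 0.33 and 0.53 on the log2 scale, and Actg2 was the one muscle actin that was lower.

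A gene without a conventional symbol, LOC688666, is described in the count table as similar to actin gamma 2, although RefSeq now lists it as a pseudogene of Actg1. It had 57 counts in HO and 86 in WT, a log2 fold of -0.61 (-1.12 to -0.11). When its reads were added to those of Actg2, the sum was 208 counts in HO and 393 in WT, with a log2 fold of -0.93 (-1.18 to -0.69), and it still passed the fold rule. How reads shared between actin genes were assigned was not stated.

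The transgelins hardly differed in sum and slightly in their balance. Tagln, also called SM22alpha and an early marker of smooth muscle, had 6518 counts in HO and 6847 in WT, and levels of 651 RPKM in HO and 699 in WT. Its log2 fold was -0.09 (-0.14 to -0.04). Tagln2, the broadly expressed relative, had 13626 counts in HO and 12570 in WT, levels of 824 RPKM in HO and 777 in WT, and a log2 fold of 0.10 (0.07 to 0.14). Both folds were small beside those of Actg2 and Smtn, although their intervals left out 0. Their summed level was 1475 RPKM in HO and 1476 in WT, of which Tagln held 44.1% in HO and 47.3% in WT. The ratio of Tagln to Tagln2 in HO was 0.878 times that in WT (0.842 to 0.916). Tagln and Acta2, both early smooth muscle genes, differed in direction, and the ratio of Acta2 to Tagln was 1.31 in HO and 0.981 in WT on the RPKM scale, or 1.34 times as high in HO (1.28 to 1.40). Tagln3, the neuronal transgelin, had 47 counts in HO and 9 in WT, a log2 fold of 2.37 (1.32 to 3.58), at levels of 4.55 RPKM in HO and 0.890 in WT, far below its relatives.

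The calponins were near their WT level in HO. Cnn1, the calponin of differentiated smooth muscle, had 2918 counts in HO and 2711 in WT, levels of 211 RPKM in HO and 200.3 in WT, and a log2 fold of 0.09 (0.02 to 0.17). Cnn2, which is found in smooth muscle and in non-muscle cells, had 1450 counts in HO and 1328 in WT, levels of 155 RPKM in HO and 145 in WT, and a log2 fold of 0.11 (0.0032 to 0.22). Cnn3, the acidic calponin, had 3150 counts in HO and 3178 in WT, levels of 171 RPKM in HO and 177 in WT, and a log2 fold of -0.03 (-0.10 to 0.04). The lower bounds for Cnn1 and Cnn2 were close to 0. Some other scalings of the libraries placed both genes within counting error, while others left Cnn1 higher beyond it. The 3 genes summed to 537 RPKM in HO and 522 in WT. Cnn1 held 39.3% of this sum in HO and 38.4% in WT, Cnn2 held 28.9% in HO and 27.8% in WT, and Cnn3 held 31.9% in HO and 33.8% in WT. The balance of the family was accordingly almost the same. The ratio of Cnn1 to Cnn2 in HO was 0.986 times that in WT (0.899 to 1.08), within counting error, while those of Cnn1 and Cnn2 to Cnn3 were 1.09 times (1.01 to 1.17) and 1.10 times (1.01 to 1.21) that in WT. Related loci described as calponin-like or as pseudogenes of Cnn3 held at most 5 counts in a library, and Slc44a3, which overlaps Cnn3 on GRCr8, had 2 counts in HO and 0 in WT.

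Myh11, the myosin heavy chain of smooth muscle and a late marker of its differentiation, had 1035 counts in HO and 987 in WT. Its levels were 16.3 RPKM in HO and 15.8 in WT, with a rank of 5224 in HO and 5298 in WT, and the log2 fold was 0.05 (-0.07 to 0.18). Set beside the non-muscle chains alone, and not the sarcomeric ones of cardiomyocytes, it held 4.55% of the summed RPKM of Myh11, Myh9 and Myh10 in HO and 3.71% in WT. Of these 3 chains Myh10 was the most abundant and had 21130 counts in HO and 26094 in WT (log2 fold -0.32), while Myh9 had 3397 in HO and 3133 in WT. The log2 fold of Myh9 was 0.10 alone and -0.34 with the reads of an unnamed copy, which these shares leave out, so its direction depended on how copies were treated. The ratio of Acta2 to Myh11 in HO was 1.21 times that in WT (1.11 to 1.33).

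Smtn and Cald1, actin-binding proteins of the contractile filament, were both lower in HO. Smoothelin is found in contractile rather than proliferating smooth muscle, and Smtn had 901 counts in HO and 1265 in WT, with levels of 26.1 RPKM in HO and 37.4 in WT. Its log2 fold was -0.50 (-0.63 to -0.38), a level in HO of 0.705 times that in WT, and 9.41% of all genes tested had a fold at or below it. The interval of Smtn reached across the 1.5-fold line, so Smtn did not pass the fold rule. Caldesmon inhibits the activity of myosin on actin, and Cald1 had 2110 counts in HO and 2387 in WT, levels of 39.9 RPKM in HO and 46.2 in WT, and a log2 fold of -0.19 (-0.28 to -0.11). The difference was larger for Smtn than for Cald1, since their ratio in HO was 0.806 times that in WT (0.725 to 0.895). This pair was added after the values were seen. Relative to Acta2 both were lower in HO, with a ratio of Acta2 to Smtn that was 1.79 times that in WT (1.63 to 1.96) and of Acta2 to Cald1 that was 1.44 times (1.35 to 1.54).

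A smoothelin-like locus, LOC103690128, had 65 counts in HO and 126 in WT, a log2 fold of -0.97 (-1.42 to -0.53). A further locus, LOC689407, which RefSeq lists as a pseudogene of Smtn, had 35 counts in HO and 32 in WT. The sum of Smtn with both was 1001 counts in HO and 1423 in WT, and its log2 fold of -0.52 (-0.64 to -0.41) was close to that of Smtn alone.

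**Figure D3:**
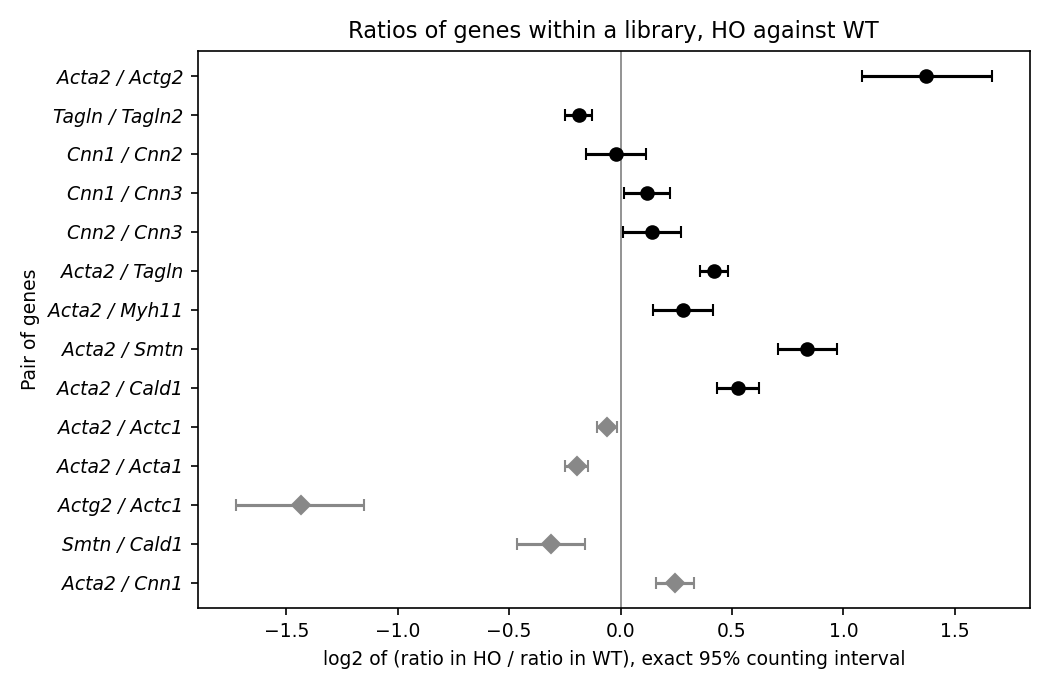
Log2 of the ratio of a pair of genes in HO divided by the same ratio in WT (horizontal axis), with exact 95% counting intervals. Circles mark 9 pairs among the members, and grey diamonds 5 pairs added after the values were seen. The ratio of Acta2 to Actg2 (2.59 times that in WT) lies farthest to the right and that of Actg2 to Actc1 (0.370 times) farthest to the left, while that of Cnn1 to Cnn2 (0.986 times) includes 0.

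The members were also divided into genes used as smooth muscle markers and broadly expressed genes. The first set is not restricted to smooth muscle in this tissue, since Acta2, Tagln and Cnn1 are also expressed in young cardiomyocytes. Among the 6 genes used as smooth muscle markers (Acta2, Actg2, Tagln, Cnn1, Myh11 and Smtn), 2 were higher and 3 lower in HO beyond counting error, with a median log2 fold of -0.02. Among the 4 broadly expressed genes (Tagln2, Cnn2, Cnn3 and Cald1), 2 were higher and 1 lower, with a median of 0.04. These counts are small and stand beside 28.1% higher and 22.0% lower among all genes of at least 458 counts, so nothing particular to either set is read from them. Without Actg2, the median of the other 9 members was 0.05.

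**Figure D4:**
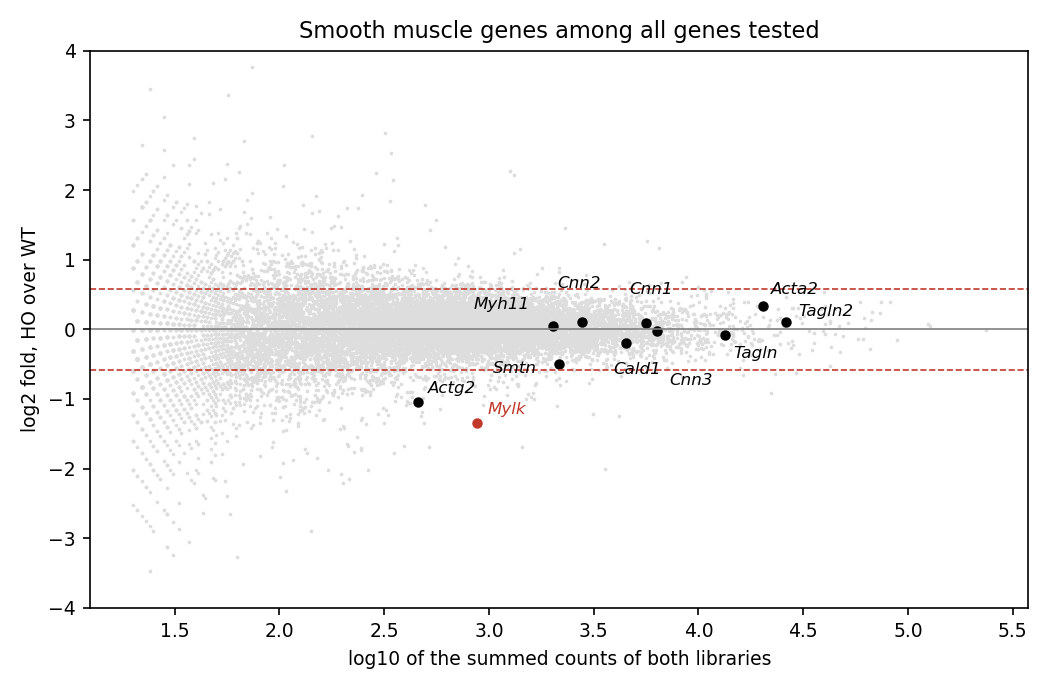
Log2 fold of HO over WT (vertical axis) against the log10 of the counts summed over both libraries (horizontal axis) for the genes tested (grey), with the 10 members in black, Mylk in red, and dashed lines at 1.5-fold; 2 genes lie outside the axis. The members sit among the more deeply counted genes, and 8 of them lie between -0.19 and 0.33, while Actg2 (-1.04) and Smtn (-0.50) lie lower. Mylk is drawn from its named locus alone, and with the reads of matching loci added its log2 fold was -0.63, which did not pass the fold rule.

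Genes of proteins that work with the members differed in both directions. Of 29 contractile partners (myosin light chains, the kinase and phosphatase that act on them, tropomyosins, and proteins of dense bodies and adhesion sites), none was higher and 1 was lower in HO by the fold rule, with a median log2 fold of 0.03. Beyond counting error, 11 were higher and 7 lower, and 11 were within it. Over all genes tested these shares were 20.3% higher and 17.0% lower, and 28.1% and 22.0% among those of at least 458 counts. By the fold rule, 0.771% of all genes tested were higher and 1.18% lower. The gene that passed was Mylk, which encodes myosin light chain kinase, the enzyme that starts smooth muscle contraction. It had 249 counts in HO and 625 in WT, levels of 3.24 RPKM in HO and 8.31 in WT, and a log2 fold of -1.34 (-1.56 to -1.13). However, LOC103691832, a locus whose best match in the annotation is Mylk, had 287 counts in HO and 197 in WT, a log2 fold of 0.53 (0.26 to 0.80) in the opposite direction. With the reads of the matching loci added, Mylk had 539 counts in HO and 825 in WT and a log2 fold of -0.63 (-0.79 to -0.47), which no longer passed. The light chain Myl9, chosen after its values were seen as were the next genes of this paragraph, had 5059 counts in HO and 4625 in WT (log2 fold 0.11). Tropomyosin Tpm1, which lies along the actin filament, had 21236 counts in HO and 17146 in WT (log2 fold 0.29), and the intermediate filament gene Des had 5728 in HO and 4307 in WT (log2 fold 0.40), and both are also expressed in cardiomyocytes. Itga8, an integrin of smooth muscle, had 502 counts in HO and 737 in WT (log2 fold -0.57).

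Among 12 genes of transcriptional control, which included SRF, myocardin, related coactivators, Tead1, other transcription factors and genes of Notch signalling, none passed the fold rule, 2 were higher and 4 lower beyond counting error, and the median log2 fold was -0.07. These counts stand beside 20.3% higher and 17.0% lower among all genes tested, and 28.1% and 22.0% among those of at least 458 counts. Notch3, a receptor of vascular smooth muscle and pericytes, had 2525 counts in HO and 3460 in WT, with a log2 fold of -0.47 (-0.54 to -0.40). Tead1, which encodes a factor that recognises the MCAT element, had 2680 counts in HO and 2546 in WT and a log2 fold of 0.06 (-0.02 to 0.14). The SRF partner gene Myocd, chosen like Srf for its role after its values were seen, had 663 counts in HO and 701 in WT (log2 fold -0.10, interval -0.25 to 0.06), and Srf had 1867 in HO and 1807 in WT (log2 fold 0.03, interval -0.06 to 0.13). Both regulators were thus within counting error. Of the related coactivators, Mkl1 had 493 counts in HO and 500 in WT (log2 fold -0.04, interval -0.22 to 0.15). Mkl2 had 51 counts in HO and 87 in WT (log2 fold -0.79, interval -1.31 to -0.27), the lowest fold of the 12 genes.

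Cell type markers were examined because the members are shared with other cells of the dissected tissue. Their counts stand beside 20.3% higher and 17.0% lower beyond counting error among all genes tested. Among genes of at least 458 counts, a depth that all 15 cardiomyocyte markers reached, these shares were 28.1% and 22.0%. Of 15 cardiomyocyte markers, 12 were higher and 1 lower in HO beyond counting error (median log2 fold 0.32), they summed to 18460 RPKM in HO and 15047 in WT, and Myl2 passed the fold rule with 5136 counts in HO and 3173 in WT. The log2 folds of these markers ran from -0.44 to 0.68. Their median was near the fold of Acta2 (0.33) but does not stand for each marker. Of 5 epicardial markers, all 5 were lower (median -0.75, sum 94.1 RPKM in HO and 155 in WT), and Tbx18 and Tcf21 passed the fold rule with 541 and 314 counts in HO, against 1054 and 545 in WT. Of 7 mural cell markers other than the members, 1 was higher and 4 lower (median -0.19, sum 468 RPKM in HO and 472 in WT). The part that cardiomyocyte, epicardial or mural cell content had in the folds of Acta2, Actg2 and Smtn was not tested.

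The other marker lists differed as follows, to be read beside the same shares of all genes tested (20.3% higher and 17.0% lower). For markers of at least 458 counts the shares are 28.1% and 22.0%. Of 8 endothelial markers, 6 were higher and none lower (median 0.18, sum 263 RPKM in HO and 240.1 in WT), and of 6 markers of cushion mesenchyme 2 were higher and 2 lower (median 0.06, sum 462 in HO and 436 in WT). Of the 4 macrophage markers tested, 3 were higher (median 1.01), at a low sum of 15.8 RPKM in HO and 8.05 in WT, and Csf1r passed the fold rule with 130 counts in HO and 47 in WT. Skeletal muscle is a possible source of actin and myosin reads in tissue around the OFT. Its 5 markers summed to 18.0 RPKM in HO and 26.8 in WT, of which Ckm alone held 15.5 in HO and 23.4 in WT. The 2 tested markers, Ckm and Myh3, were lower. Its regulators were at or near 0, as Myod1 had 6 counts in HO and 1 in WT. Myog had 8 in HO and 7 in WT, and Myf5 had no count in either library. The presence of skeletal muscle cells can therefore not be read from this sum. Markers of neural crest and glia (4 tested, 0 higher and 1 lower, Foxd3 at 0 in both libraries), of neurons (3 tested, 0 higher and 1 lower), of red cells (3 tested, 1 higher and 1 lower) and of epithelium (3 tested, none outside counting error) held no gene that passed the fold rule.

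**Figure D5:**
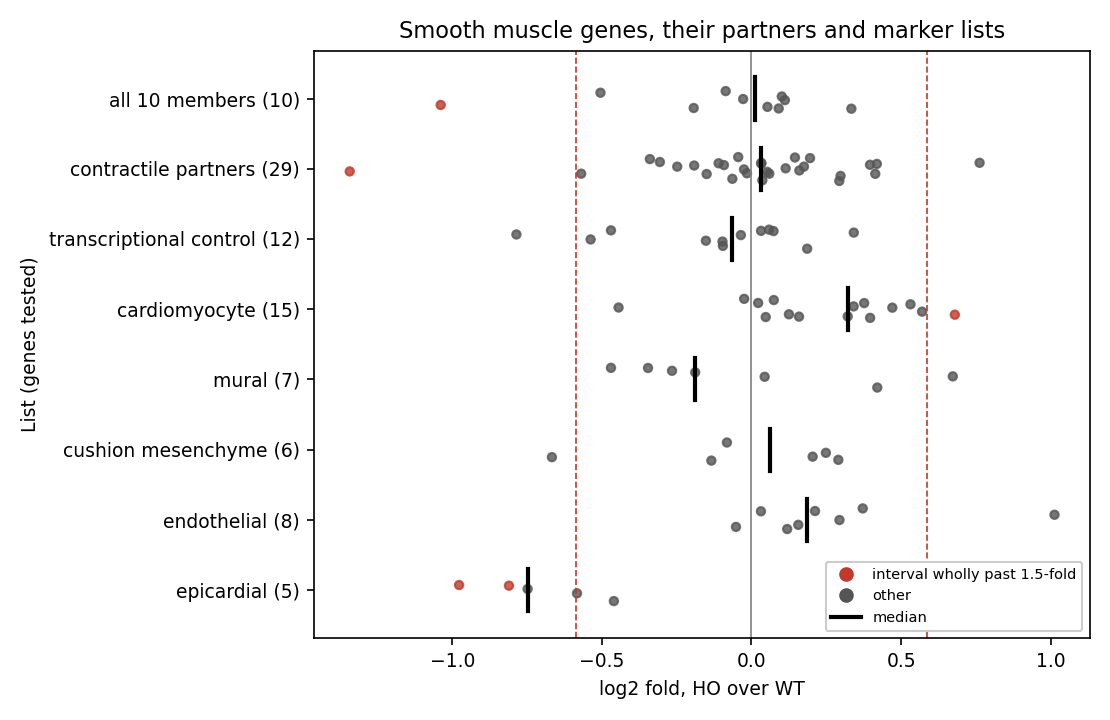
Log2 fold of HO over WT (horizontal axis) of each tested gene in the list of 10 members, the contractile partners, the genes of transcriptional control and 5 marker lists, with the median of each list as a black bar, red points for genes whose interval lies wholly past 1.5-fold, and dashed lines at 1.5-fold. The medians of the members (0.01) and partners (0.03) lie near 0, that of the cardiomyocyte markers (0.32) to the right and that of the epicardial markers (-0.75) to the left.

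The libraries themselves were of similar depth, with 9528615 counts in HO and 9321811 in WT, and the 10 most abundant genes held 5.50% of them in HO and 5.22% in WT. Snx17 had 994 counts in HO and 1365 in WT, a log2 fold of -0.47 (-0.59 to -0.35). Reads outside the deleted part are included in this count, so it is a weak check of the genotype labels.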

How the data were processed

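RNA of OFTs from HO and WT embryos was sequenced as 1 pooled library per genotype. The authors used MapSplice to align reads to build Rnor 6.0 and deposited raw counts per gene and RPKM values, which are the same counts divided by gene length and library total. The gene annotation, the counter and its strand setting were not given in the sources used here, so reads of overlapping or near-identical genes could not be separated. The deposited columns carry the stage E11_5, whereas the sample labels give E13.5, which was used. The gene descriptions of the count table served to find related loci. The EBSeq analysis of the study was not run.

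Counts were scaled with TMM over all genes in edgeR 4.0.16 (R 4.3.3) (effective library size in HO 1.01 times that in WT). With 1 library per genotype, the models of replicate spread in edgeR and DESeq2 could not be fitted. Exact 95% binomial (Clopper-Pearson) intervals of the folds, exact intervals of the ratios between gene pairs, and Poisson intervals of levels came from scipy 1.17.1 and statsmodels 0.14.6 under Python 3.11.15, tables were handled in pandas 2.3.3 and numpy 2.4.6, and matplotlib 3.10.9 drew the figures. Genes were tested where their HO and WT counts summed to at least 20, and the rule was an interval wholly past 1.5-fold. The scripts were tested on simulated data. Alternatives were the ratio of RPKM values, upper-quartile factors, DESeq2 1.42.0 size factors, scaling to total counts, TMM leaving out mitochondrial and haemoglobin genes, centring by abundance or by gene length, other filters, a 99% interval, a 2-fold threshold, and summing of copies. TMM over the tested genes alone and summing of all described relatives were added after the data were seen.

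The members and the lists were chosen with earlier results of these data known. By rule, the text names all 10 members, their families and related loci, Snx17, and from each list the genes that met the 1.5-fold rule, or else the 2 with most counts. Outside this rule, Myl9, Tpm1, Des, Itga8, Myocd, Srf, Mkl1 and Mkl2 were chosen after their values were seen. Myf5 and Foxd3 are named because they had no count, and Myod1 and Myog because they had few. For marker lists other than skeletal muscle without a gene past 1.5-fold, the 2 genes with most counts are not named. Such a list is described by its counts of genes, its median or its summed RPKM. The factors now called Mrtfa and Mrtfb were looked up as Mkl1 and Mkl2. Hba-a1, Hba-a2 and Adgre1 were not matched. Promoter windows came from RefSeq (GRCr8), and no coordinate was carried between builds.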

Additional observations from a re-analysis of the deposited data

How the results depend on the processing

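Of the 14 alternatives, 8 rescale or centre the folds, the summing of copies touches only members with relatives, and the others leave the folds as they are. Under those 8, 75 of 80 member values stayed within the 95% interval of the member's fold, and no member reversed. The exceptions were Acta2 and Tagln2 with upper-quartile factors (log2 folds 0.29 and 0.06) and Acta2, Tagln and Tagln2 with centring by gene length (0.26, -0.17 and 0.05). Apart from the centrings, these alternatives shift every gene by one common, small amount. The 80 values are therefore not independent checks, and little movement was possible in most of them. Actg2 ranged between -1.11 and -0.93 and passed the fold rule under each of the 8, with a 99% interval and with its relative added. With the 2-fold threshold 0 members passed, against 1 with the 1.5-fold threshold. Smtn ranged between -0.55 and -0.50. The call beyond counting error was lost for Cnn1 in 5 alternatives and for Cnn2 in 8, and Cnn3 was lower beyond it in 2. The number of members beyond counting error was between 6 and 8. Over all genes tested, 301 passed the fold rule, against 185 with at least 100 counts, 190 with a 99% interval and 99 with the 2-fold threshold. The first of these tests fewer genes and the others ask for a larger difference. Summing copies gave 212 genes, and moved Mylk to -0.63, while its other alternatives lay between -1.39 and -1.27. No paired analysis was possible because each genotype had 1 library, and no library could be left out for the same reason. Differences between embryos, litters or dissections cannot be told apart from those of genotype.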
